A study of Homo sapiens with 28 samples.

Results

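The comparison set Kuramochi cells adapted to 10 uM of olaparib (T10) against Kuramochi cells that had met the same dose for 9 days (P10). Members were chosen by sample, not by any measured value: 4 of the 28 listed libraries, 2 for T10 and 2 for P10, read over all 105048 consensus peaks. Kuramochi is an ovarian cancer cell line with the features of high-grade serous carcinoma and a BRCA2 mutation, which every population carried. T10 cells were held at the 10 uM to which they had become resistant and were sorted for low CD24 and high CD44. P10 cells, called persister cells in the labels, came from drug-naive cultures, and no sort is named for them. Untreated cells (C, 2 libraries), sorted on CD24 and CD44 with no gate stated, served as the base line. Adaptation and sort cannot be told apart between T10 and P10, and CD24 and CD44 were sort markers in T10. Nor can exposure and sort be told apart between P10 and C, wherever P10 is set against C below. How long T10 had been under drug is not given in the sources used here. All 3 populations come from 1 cell line, and the labels do not say that replicates were separate cultures, so the tests measure the spread between libraries, which may be technical. For a second dose, T320 and P320 were used, with 2 libraries each: cells adapted to 320 uM and sorted in the same way as T10, and drug-naive cells exposed to 320 uM for 9 days.

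Olaparib blocks PARP enzymes, which sense breaks in DNA, and holds them on the broken strand. Cells that lack BRCA2 cannot repair the resulting breaks by homologous recombination and tend to die. Persister cells are the fraction that outlives a short exposure, usually cycling slowly, while adapted cells grow in the drug. ATAC-seq cuts open chromatin with a transposase, so the count in a peak grows with the accessibility of that promoter or enhancer. In a bulk library, more cells with an open site and a wider opening in each cell cannot be told apart.

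Total counts in peaks were 13143837 and 26503482 in the T10 libraries, 22184883 and 22437074 in the P10 libraries, and 11347046 and 22218981 in the C libraries. On the scale of log2 CPM (counts scaled to the size of each library), the T10 libraries had a Pearson correlation of 0.933 across peaks, the P10 libraries one of 0.977, and the pairs of a T10 and a P10 library between 0.623 and 0.731. The median peak differed by 0.312 log2 units between the T10 libraries and by 0.165 between the P10 libraries. Counts of replicates differed by more than sampling noise, with a chi-square of 6.09 per peak for T10 and 2.11 for P10, so none was a repeat deposit. Peaks within 1 kb of an end of a protein-coding gene, called gene-end peaks here, took 32.1% and 32.8% of the counts in T10, and 32.7% and 32.5% in P10. Of the epithelial and Mullerian genes, EPCAM, CDH1 and PAX8 had counts in both populations and were not called different. Among other members of these lists, most that differed were lower in T10, as given below. The peak of EPCAM, an epithelial adhesion protein, had 5.90 and 6.18 CPM in T10, against 5.51 and 6.93 CPM in P10. The E-cadherin gene CDH1 had 3.21 and 3.01 CPM in T10, against 2.95 and 2.88 CPM in P10. PAX8, a transcription factor of the Mullerian lineage, had 28.1 and 30.1 CPM in T10, against 28.3 and 25.6 CPM in P10. Of 11 listed blood genes 6 had a gene-end peak, with a sum of 43.1 and 45.3 CPM in T10, against 68.6 and 63.9 CPM in P10, while PTPRC, CD3E, CD79A and LYZ had none.

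Promoters that stood furthest apart between T10 and P10 are shown first, with their letters. The lines give the 3 largest rises and the 3 largest falls whose peak covers a promoter in the RefSeq tables (GRCh38.p14), from 250 bases before to 50 bases after the gene start, read 5′ to 3′ on the strand of the gene. Capitals mark matches, on either strand, to 7 short motifs: TGANTCA (AP-1), TGACGTCA (CRE), CATTCC (TEAD), CCGGAAGT (ETS), GGGCGG (GC box), ACAATNG (SOX) and CCAAT (NF-Y).
AMTN promoter, chr4:70518319-70518618, plus strand: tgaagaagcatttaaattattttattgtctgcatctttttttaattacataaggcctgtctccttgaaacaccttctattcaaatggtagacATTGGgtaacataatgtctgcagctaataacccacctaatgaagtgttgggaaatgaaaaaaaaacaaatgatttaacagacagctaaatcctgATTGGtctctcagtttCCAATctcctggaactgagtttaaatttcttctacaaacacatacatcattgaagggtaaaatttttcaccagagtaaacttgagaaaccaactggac
RGS4 promoter, chr1:163068621-163068920, plus strand: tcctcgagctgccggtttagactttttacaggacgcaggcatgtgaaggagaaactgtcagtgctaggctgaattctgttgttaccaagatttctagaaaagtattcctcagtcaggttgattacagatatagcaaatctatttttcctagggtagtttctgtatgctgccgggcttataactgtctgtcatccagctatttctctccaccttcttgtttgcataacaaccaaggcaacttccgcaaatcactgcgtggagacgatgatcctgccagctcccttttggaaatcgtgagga
FABP2 promoter, chr4:119322089-119322388, minus strand: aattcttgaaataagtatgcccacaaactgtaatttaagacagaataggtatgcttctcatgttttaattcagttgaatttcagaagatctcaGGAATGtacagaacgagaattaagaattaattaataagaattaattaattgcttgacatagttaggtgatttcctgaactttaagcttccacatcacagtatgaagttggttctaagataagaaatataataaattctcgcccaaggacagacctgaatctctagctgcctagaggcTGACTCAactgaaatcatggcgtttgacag
PDZK1IP1 promoter, chr1:47189987-47190286, minus strand: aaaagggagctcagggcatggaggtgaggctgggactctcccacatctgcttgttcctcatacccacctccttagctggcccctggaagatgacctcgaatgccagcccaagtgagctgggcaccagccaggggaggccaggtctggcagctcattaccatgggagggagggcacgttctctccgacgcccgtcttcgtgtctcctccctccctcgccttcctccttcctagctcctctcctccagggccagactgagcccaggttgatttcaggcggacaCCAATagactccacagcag
EPSTI1 promoter, chr13:42992192-42992491, minus strand: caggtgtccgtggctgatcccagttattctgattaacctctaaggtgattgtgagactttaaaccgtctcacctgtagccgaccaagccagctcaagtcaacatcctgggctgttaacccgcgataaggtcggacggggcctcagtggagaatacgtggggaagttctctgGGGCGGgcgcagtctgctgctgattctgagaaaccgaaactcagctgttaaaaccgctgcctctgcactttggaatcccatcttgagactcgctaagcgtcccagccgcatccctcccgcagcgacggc
LRATD1 promoter, chr2:14632467-14632766, plus strand: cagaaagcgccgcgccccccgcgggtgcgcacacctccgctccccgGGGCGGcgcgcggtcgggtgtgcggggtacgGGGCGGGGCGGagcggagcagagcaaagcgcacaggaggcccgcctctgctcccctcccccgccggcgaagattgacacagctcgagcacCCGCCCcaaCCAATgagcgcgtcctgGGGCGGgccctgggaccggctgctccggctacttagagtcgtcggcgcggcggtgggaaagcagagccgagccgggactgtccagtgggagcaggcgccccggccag
The 3 promoters that were more open in T10 held 33.7% G and C letters (AMTN), 44.7% (RGS4) and 34.0% (FABP2). The 3 that were less open in T10 held 61.0% (PDZK1IP1), 55.7% (EPSTI1) and 75.3% (LRATD1). The median over all promoters with a peak was 65.7%, and only LRATD1 lay above it. AMTN had 3 CCAAT matches and FABP2 had 1 TGANTCA and 1 CATTCC match. LRATD1 had 5 GC boxes and 1 CCAAT match, EPSTI1 had 1 GC box, PDZK1IP1 had 1 CCAAT match, and RGS4 had none of the 7. A match describes letters only.

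Across the genome T10 differed from P10 at 34568 of 105048 peaks (32.9%), of which 18746 were gained (17.8%) and 15822 lost (15.1%). Gained and lost here mean higher and lower in T10 by at least 2-fold, with a p-value from edgeR's quasi-likelihood test that stayed under 0.05 after Benjamini-Hochberg adjustment. The libraries did not overlap at 80.1% of all peaks, with both T10 values higher at 41.2% and both lower at 38.8%. Against untreated cells, 18632 peaks were called in T10 (17.7%; 8944 gained, 8.51%, and 9688 lost, 9.22%) and 23217 in P10 (22.1%; 9789 gained, 9.32%, and 13428 lost, 12.8%). The order of these counts turned without C replicate 2, when 13009 peaks were called in T10 and 12799 in P10. Both of these comparisons share libraries with the comparison of T10 with P10, and their counts were not tested against each other. The count for T10 against P10 was 22799 without T10 replicate 2, and between 28037 and 37350 without any other T10 or P10 library. With TMM scaling from gene-end peaks alone, 26.6% of the P10 calls against C were gains, beside 42.2% in the scaling used here.

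Losses outnumbered gains at promoters, and gains outnumbered losses far from genes. Of 10459 peaks within 1 kb of a gene start, 5.29% were gained and 9.64% lost in T10. Of 2099 peaks within 1 kb of a far end but not of a start, 10.9% were gained and 16.1% lost. Distal peaks, with no annotated gene end within 1 kb, numbered 81996, and 20.3% were gained and 15.8% lost. More than 50 kb from any protein-coding gene, 25.9% of 22483 peaks were gained and 14.7% lost, and the median log2 fold change there was 0.21. All 15322 gene-end peaks together had 943 gains (6.15%) and 1688 losses (11.0%). At the extremes, 44 peaks had at least 5 CPM in both T10 libraries and under 0.5 CPM in both P10 libraries, while 3 peaks had the reverse, and 0 of either kind were gene-end peaks.

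**Figure D1:**
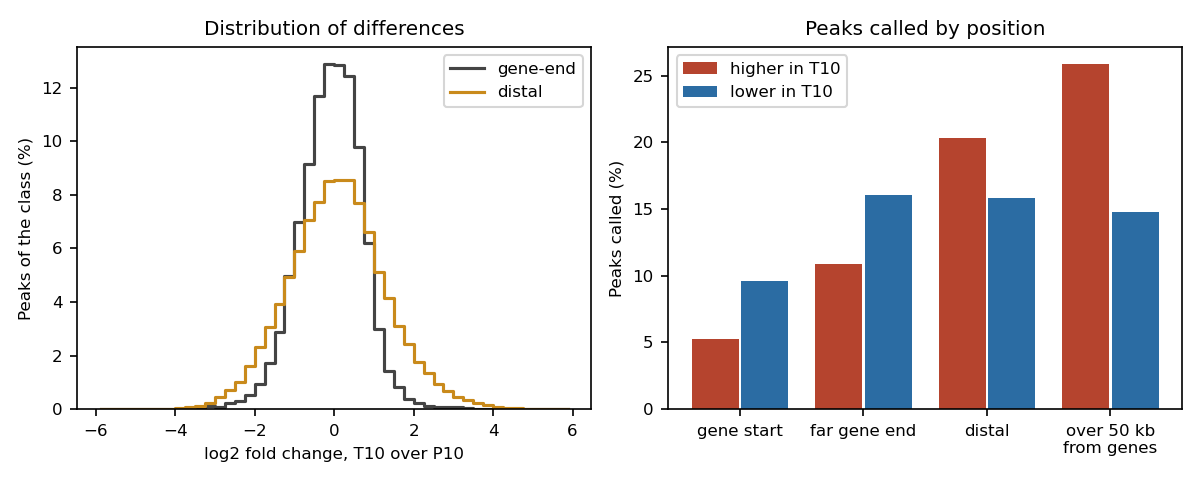
Left, the percentage of gene-end peaks (dark line) and distal peaks (ochre line) in each bin of log2 fold change, T10 over P10; right, the percentage of peaks called higher (red) or lower (blue) in T10 by position. Distal peaks spread wider than gene-end peaks, and losses exceed gains at gene starts (9.64% against 5.29%) while gains exceed losses over 50 kb from genes (25.9% against 14.7%).

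The 8 largest rises at gene ends were at peaks of low to moderate height. The start of AMTN, which encodes the enamel protein amelotin, lies under the peak chr4:70518409-70519014. That peak had 2.91 and 6.33 CPM in T10, 0.221 and 0.0872 CPM in P10, and 0.985 and 0.471 CPM in C, a log2 fold change of T10 over P10 of 4.88 ± 0.62 (SE; edgeR adjusted p = 1.1e-05). Both T10 libraries lay above C and both P10 libraries below it. RGS4, a GTPase activator that shortens G-protein signalling, had 8.60 and 13.3 CPM in T10, 1.01 and 1.00 CPM in P10, and 4.92 and 2.31 CPM in C (3.44 ± 0.39). COL14A1, a collagen that sits on larger fibrils, had 17.6 and 27.4 CPM in T10, 2.29 and 2.05 CPM in P10, and 5.499 and 3.16 CPM in C (3.38 ± 0.30). Again T10 was high, P10 low, and C between them, where the choice of peaks fixes T10 above P10. SLC35F1, a member of a solute carrier family, had 12.2 and 19.8 CPM in T10, against 1.54 and 0.654 CPM in P10 (3.87 ± 0.38). PTTG1IP2 rose by 4.22, FABP2 (the intestinal fatty acid binding protein) by 3.43, LRRC70 by 3.35 and MC4R (a melanocortin receptor of energy balance) by 3.202 log2 units. Their T10 values ran from 2.48 to 8.05 CPM, so these are low peaks that were nearly shut in P10.

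The 8 largest falls included higher peaks, and 5 of them lay on chromosome 1. PDZK1IP1, a small membrane protein that binds the scaffold PDZK1, had 3.498 and 2.38 CPM in T10, 41.7 and 46.4 CPM in P10, and 17.4 and 10.7 CPM in C, a log2 fold change of -3.93 ± 0.46 (edgeR adjusted p = 5.4e-06). No T10 library came near any P10 or C library there. The far end of IL22RA1, a receptor chain for interleukin 22, had 6.49 and 4.77 CPM in T10, 57.4 and 58.4 CPM in P10, and 28.5 and 24.1 CPM in C (-3.38 ± 0.25). At the far end of PTGFRN, a membrane protein that partners tetraspanins, there were 1.17 and 2.78 CPM in T10, 22.8 and 20.6 CPM in P10, and 8.54 and 13.5 CPM in C (-3.38 ± 0.46). T10 was lowest and P10 highest at each of these 3, where the choice of peaks fixes T10 below P10. The other falls were the far ends of CHI3L2 (a chitinase-like protein; -3.79), TIPRL (a binding partner of PP2A phosphatases; -3.52) and TXNL4B (-3.49), and the starts of EPSTI1 (an interferon-induced gene; -3.28) and LRATD1 (-3.23). CHI3L2 was not called without T10 replicate 2 (-2.98), and LRATD1 moved to -6.203 without T10 replicate 1 and to -2.06 without T10 replicate 2. CHI3L2 and LRATD1 rest on 0.274 and 0.0391 CPM in T10 replicate 2.

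Gene lists give the same comparison by function. Where a gene had several gene-end peaks, the one with most counts stood for it. Over the 12830 distinct peaks that represent all genes, 696 were gained (5.42%) and 1255 lost (9.78%), with a median log2 fold change of -0.02. The 24 lists held 446 distinct measured genes, of which 24 were gained and 52 lost, 17.0% called against 15.2% of all representative peaks. Several of the peaks named below touch a second gene, which cannot be told apart from the first: those of ABCC3 (ANKRD40), KLK8 (KLK9), HK1 (HKDC1), XAF1 (FBXO39), B2M (PATL2), FDXR (FADS6), PLK3 (BTBD19 and DYNLT4), ERBB2 (PGAP3), FANCM (FKBP3), SHLD3 (TRAPPC13 and TRIM23) and VCP (FANCG). KLF6, XAF1, PLK3, KRT8 and GATA1 were read at their far ends. With a test against the 2-fold threshold itself (glmTreat) 15 of the 446 list members were called, and 191 with no fold minimum.

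Epithelial genes were lost without a gain. Of 24 measured members of 28, 0 were gained, 6 were lost (beside 9.78% of all representative peaks) and 18 did not pass, with a median of -0.50. SPINT2, an inhibitor of the matriptase protease, had 18.5 and 13.6 CPM in T10, 40.5 and 37.7 CPM in P10, and 18.5 and 23.7 CPM in C (-1.29 ± 0.23; edgeR adjusted p = 0.00018). GRHL1, a transcription factor of surface epithelia, had 6.56 and 4.30 CPM in T10, 17.8 and 14.3 CPM in P10, and 5.17 and 5.94 CPM in C (-1.58 ± 0.31). T10 lay beside C at SPINT2 and GRHL1, and P10 stood above both. The list as a whole differed from these 2 genes, with a median log2 fold change against C of -0.33 in T10 and 0.05 in P10. Over all representative peaks the medians against C were 0.16 in T10 and 0.14 in P10. DSP (desmoplakin of cell junctions) fell by 1.15, ST14 (matriptase) by 1.66, OVOL2 (a repressor of mesenchymal genes) by 1.14 and LAMB3 (a laminin chain of basement membranes) by 1.02 log2 units. CDH1 (0.09), EPCAM (-0.04), KRT8 (-0.10) and KRT18 (-0.06) were not called. Removing the relation to GC content described below ended the calls of GRHL1 (-0.93) and DSP (-0.62), removing the median shift of each 5 Mb window ended that of LAMB3 (-0.57), and the calls of ST14 and OVOL2 ended without T10 replicate 2.

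Mesenchymal genes moved both ways. Of 28 measured members 3 were gained, 2 lost and 23 did not pass, with a median of 0.02. All representative peaks also moved both ways, with 5.42% gained and 9.78% lost. COL1A1, a chain of type I collagen, had 30.5 and 33.2 CPM in T10, 13.6 and 14.7 CPM in P10, and 11.5 and 18.1 CPM in C (1.17 ± 0.19; edgeR adjusted p = 7.5e-05). T10 was alone in being high. CCN2, a matrix protein induced by TGF-beta and YAP, had 178 and 127 CPM in T10, 71.1 and 68.4 CPM in P10, and 117 and 148 CPM in C (1.12 ± 0.19), so P10 was alone in being low. COL1A2 rose by 1.07, while COL6A2 fell by 1.30 and TWIST1, an inducer of mesenchymal transition, by 1.11. VIM (0.12 ± 0.21) and FN1 (-0.14 ± 0.19), the intermediate filament vimentin and fibronectin, were not called. With the window shift removed COL1A1 (0.82) and CCN2 (0.53) were no longer called and COL1A2 turned to -0.21. TWIST1 was not called without T10 replicate 1, CCN2 not without T10 replicate 1 either (0.86), and COL6A2 neither without T10 replicate 2 nor with the GC relation removed (-0.66).

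Lineage genes of Mullerian and serous ovarian cells gave 1 gain, 4 losses and 9 members that did not pass among 14 measured of 20, with a median of -0.31. Beside these, 5.42% of all representative peaks were gained and 9.78% lost. CD24, among the losses, was a marker on which T10 was sorted low. MSLN, the surface antigen mesothelin, had 16.6 and 17.6 CPM in T10, 46.8 and 44.2 CPM in P10, and 41.0 and 61.2 CPM in C (-1.41 ± 0.24; edgeR adjusted p = 0.00015). WT1, a transcription factor used to identify serous carcinoma, had 25.1 and 28.3 CPM in T10, 60.9 and 63.8 CPM in P10, and 39.1 and 60.3 CPM in C (-1.22 ± 0.20). Here T10 lay below C as well, and P10 lay within or near the range of C. SOX17, a transcription factor of the reproductive tract epithelium, had 21.4 and 24.8 CPM in T10, 59.1 and 59.6 CPM in P10, and 26.0 and 47.3 CPM in C (-1.36 ± 0.22). The sort marker CD24 had 9.33 and 7.35 CPM in T10, 19.1 and 17.9 CPM in P10, and 10.4 and 14.99 CPM in C (-1.16 ± 0.21). CD44, the other sort marker, had 15.7 and 18.6 CPM in T10, against 20.1 and 19.1 CPM in P10, and was not called (-0.19 ± 0.22). KLK8, a serine protease, rose by 1.15, but with the window shift removed its value was -0.0034. The same adjustment ended the calls of MSLN (-0.79) and WT1 (-0.95), and CD24 was not called without T10 replicate 2 (-0.99).

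**Figure D2:**
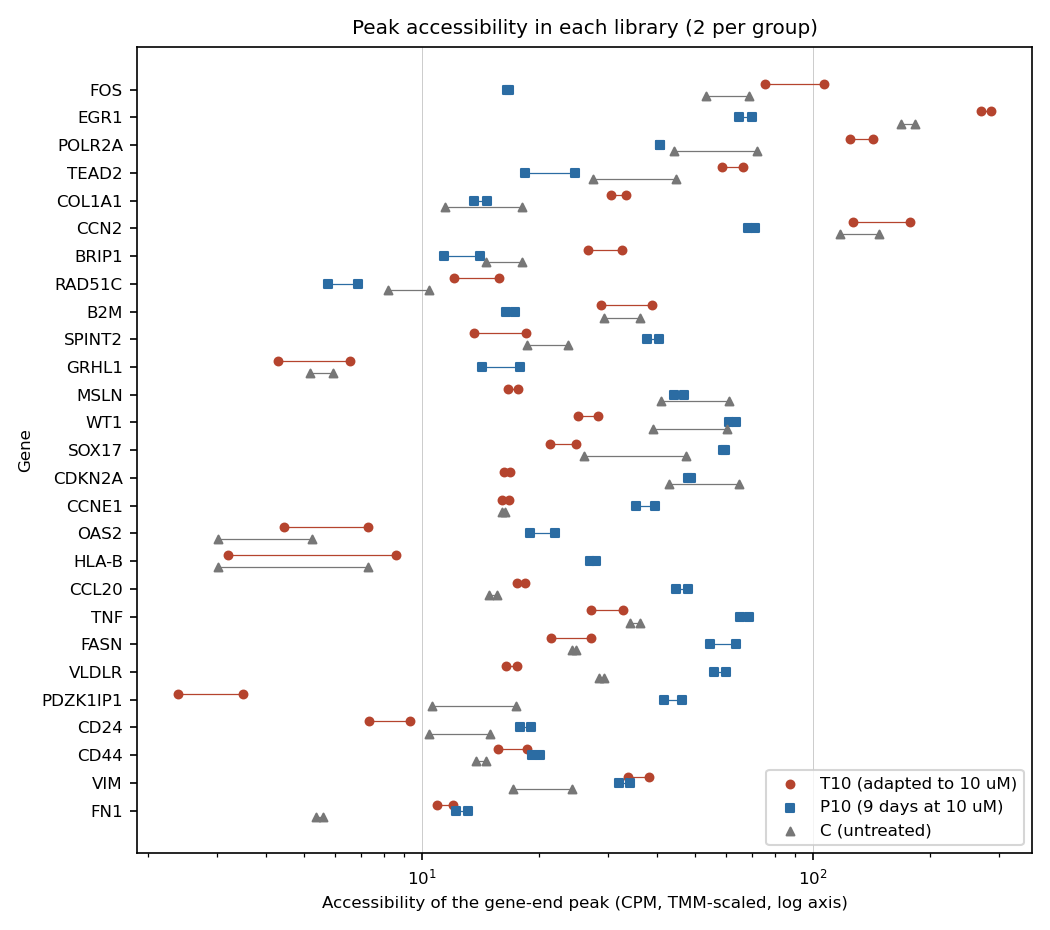
Accessibility in CPM (log axis) of the gene-end peak of 27 genes in each library, with a line joining the 2 libraries of a group; red circles are T10, blue squares P10 and grey triangles C. T10 lies right of P10 from FOS to B2M and left of it from SPINT2 to CD24, and the groups meet or nearly meet at CD44, VIM and FN1.

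FOS and EGR1, immediate early genes that respond to growth signals within minutes, rose in T10. FOS, a subunit of the AP-1 transcription factor, was read at its far end (chr14:75281116-75284595), which had 107 and 75.4 CPM in T10, 16.7 and 16.5 CPM in P10, and 68.7 and 53.4 CPM in C, a log2 fold change of 2.45 ± 0.22 (edgeR adjusted p = 6.9e-07). EGR1, a zinc finger factor induced by growth signals, was also read at its far end and had 286 and 269 CPM in T10, 70.0 and 64.9 CPM in P10, and 168 and 183 CPM in C (2.04 ± 0.18). At both genes T10 exceeded C and P10 lay far below C. KLF2 (-1.56) and KLF6 (-1.51), a pair of related zinc finger factors, were lost. The other 20 of 24 measured members did not pass, among them JUN (-0.06), and the median of the list was -0.32. Beside these 2 gains and 2 losses, 5.42% of all representative peaks were gained and 9.78% lost. Against C the median of the list was 0.19 in T10 and 0.35 in P10, so the low P10 values of FOS and EGR1 were not shared by the list. KLF2 was not called with the GC relation removed (-0.86).

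Genes of Hippo, Wnt and receptor tyrosine kinase signalling changed in both directions, as did all representative peaks (5.42% gained and 9.78% lost). TEAD2, a DNA-binding partner of YAP, had 58.7 and 66.2 CPM in T10, 18.4 and 24.7 CPM in P10, and 27.5 and 44.6 CPM in C (1.53 ± 0.25; edgeR adjusted p = 9.0e-05). LATS2, a kinase that inhibits YAP, had 18.1 and 14.7 CPM in T10, 45.1 and 40.8 CPM in P10, and 22.4 and 21.7 CPM in C (-1.39 ± 0.18). Of 18 measured members of that list 2 were gained and 2 lost, CRIM1 (-1.12) being the other loss, with a median of -0.05. TCF7, a factor at the end of the Wnt pathway whose far end shares its peak with SKP1, had 12.8 and 19.4 CPM in T10, 1.81 and 2.62 CPM in P10, and 5.83 and 7.45 CPM in C (2.87 ± 0.26). NKD1, an inhibitor of that pathway, fell by 1.44 and POU5F1 by 1.13, the other 2 of 3 calls among 18 measured Wnt and stemness genes (median -0.21). Among 25 measured receptor tyrosine kinases and ligands 1 was gained and 4 were lost, with a median of -0.40. GAS6, a ligand of AXL, had 2.19 and 1.84 CPM in T10, 14.02 and 8.85 CPM in P10, and 5.83 and 4.67 CPM in C (-2.52 ± 0.35). FGFR3 fell by 1.68, EPHB2 by 1.32 and EGFR by 1.06, and ERBB2 rose by 1.00. LATS2 (-0.999), EPHB2 (-0.71) and EGFR (-0.58) were not called with the window shift removed, nor FGFR3 (-0.77) with the GC relation removed, and ERBB2 and POU5F1 lost their calls without T10 replicate 2.

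Repair genes gave few calls, and none of them held with the window shift removed or with the GC relation removed. Of 35 measured genes of homologous recombination and PARP biology 4 were gained, 1 was lost and 30 did not pass, with a median of 0.30. Over all representative peaks 5.42% were gained and 9.78% lost, 15.2% called in all. BRIP1, a helicase that works with BRCA1, had 26.7 and 32.6 CPM in T10, 14.1 and 11.4 CPM in P10, and 14.6 and 18.1 CPM in C (1.22 ± 0.20; edgeR adjusted p = 9.6e-05). RAD51C, a homologous recombination protein that shares its peak with TEX14 and IGBP1C, had 12.1 and 15.8 CPM in T10, 6.88 and 5.75 CPM in P10, and 8.21 and 10.4 CPM in C (1.15 ± 0.25). Both T10 libraries exceeded every P10 and C library at these 2 genes. FANCM, a helicase of the Fanconi anaemia pathway, and SHLD3, a shieldin subunit that opposes end resection, each shared their peak with other genes and rose by 1.03 and 1.00. MAD2L2, another shieldin subunit, fell by 1.47, with 5.83 and 1.95 CPM in T10, against 11.3 and 9.46 CPM in P10. BRCA2, which these cells carry in mutant form and whose peak it shares with ZAR1L, had 25.7 and 29.4 CPM in T10, against 25.01 and 26.7 CPM in P10, and was not called (0.09 ± 0.22). PARP1, the main target of olaparib, had 14.6 and 20.7 CPM in T10, against 31.7 and 37.4 CPM in P10; its log2 fold change of -0.96 ± 0.22 missed the 2-fold minimum at an edgeR adjusted p of 0.0015, and it was called without T10 replicate 2 (-1.25). SLFN11, whose product sensitises cells to PARP inhibitors, was not called (0.63 ± 0.38). BRIP1 (0.71 and 0.90), RAD51C (0.77 and 0.86), FANCM (0.18 and 0.83), SHLD3 (0.80 and 0.58) and MAD2L2 (-0.81 and -0.84) each lost their call with the window shift removed and with the GC relation removed.

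Genes of the cell cycle included inhibitors and a driver, CCNE1, among the losses. CDKN2A, which encodes the inhibitors p16 and p14ARF, had 16.3 and 16.8 CPM in T10, 48.9 and 48.0 CPM in P10, and 43.0 and 64.7 CPM in C (-1.55 ± 0.36; edgeR adjusted p = 0.0019). Its neighbour CDKN2B, another inhibitor, had 15.6 and 16.9 CPM in T10, against 40.2 and 33.3 CPM in P10 (-1.17 ± 0.35). T10 was below P10 and C at both. CCNE1, the cyclin that starts DNA replication, had 16.8 and 16.1 CPM in T10, 39.5 and 35.4 CPM in P10, and 16.1 and 16.3 CPM in C (-1.19 ± 0.20), so P10 was alone in being high. CDKN1C fell by 1.24, and AURKB, a mitotic kinase, rose by 1.21, with 37.97 and 42.7 CPM in T10, against 16.8 and 18.3 CPM in P10. In all 1 of 31 members was gained and 4 were lost (beside 5.42% and 9.78% of all representative peaks), with a median of 0.15. Among 16 measured p53 targets FDXR rose by 1.16 and PLK3 fell by 1.04. CDKN2A (-0.70), CDKN2B (-0.33), CDKN1C (-0.90), CCNE1 (-0.92), AURKB (0.50), FDXR (0.90) and PLK3 (-0.52) were not called with the window shift removed.

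Genes of drug export and detoxification changed in both directions, with calls at 3 of 9 measured transporters and 3 of 19 measured detoxification genes, beside 15.2% of all representative peaks. ABCC4, a pump for nucleotides and drugs, had 5.76 and 6.96 CPM in T10, 23.1 and 21.4 CPM in P10, and 10.8 and 10.4 CPM in C (-1.80 ± 0.19; edgeR adjusted p = 2.0e-06). ABCA3, a lipid transporter, fell by 1.33, and ABCC3, a pump for conjugated compounds, rose by 1.37, and the median of the transporters was -0.22. ABCB1, the pump that exports olaparib, had no gene-end peak. Of the NRF2 and detoxification genes 2 were gained and 1 was lost, with a median of -0.27. AKR1C2, an aldo-keto reductase, had 5.47 and 10.0 CPM in T10, 1.81 and 2.75 CPM in P10, and 4.27 and 2.45 CPM in C (1.78 ± 0.40), and the related AKR1B10 rose by 1.13. ALDH1A3, a retinaldehyde dehydrogenase, fell by 1.71. AKR1B10 (0.58) and ABCA3 (-0.71) were not called with the window shift removed, and neither AKR1B10 (0.93) nor AKR1C2 (1.26) was called without T10 replicate 2.

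Genes of innate immunity were more open in P10 at several sites and less open at others. Over all representative peaks 5.42% were gained and 9.78% lost. OAS2, an interferon-induced sensor of double-stranded RNA, had 4.45 and 7.31 CPM in T10, 21.96 and 19.0 CPM in P10, and 5.25 and 3.02 CPM in C (-1.77 ± 0.28; edgeR adjusted p = 6.9e-05). RSAD2, the antiviral enzyme viperin, had 5.98 and 4.57 CPM in T10, 17.2 and 15.1 CPM in P10, and 6.48 and 3.16 CPM in C (-1.63 ± 0.28), from a peak shared with CMPK2. XAF1 fell by 1.93, while IFIT1 rose by 1.51 and IFIT3 by 1.01, so 2 of 26 interferon genes were gained and 3 lost (median -0.16). The far end of HLA-B, which presents antigen, had 8.60 and 3.21 CPM in T10, 27.9 and 27.0 CPM in P10, and 7.30 and 3.02 CPM in C (-2.27 ± 0.44). B2M, the partner chain of HLA-B, rose by 1.00 ± 0.22, just past the minimum, and these were the 2 calls among 16 antigen presentation genes (median -0.27). The far end of CCL20, a chemokine, had 17.5 and 18.3 CPM in T10, 47.9 and 44.8 CPM in P10, and 15.6 and 14.9 CPM in C (-1.37 ± 0.22). The far end of TNF, in a peak shared with LTB, had 27.0 and 32.6 CPM in T10, 65.2 and 68.7 CPM in P10, and 36.1 and 34.0 CPM in C (-1.16 ± 0.17). At OAS2, RSAD2, HLA-B, CCL20 and TNF the T10 values lay at or near those of C, and P10 stood above both. IL1B fell by 1.56 and NFKBIA, the inhibitor of NF-kB, by 1.04. TLR4, a receptor for bacterial lipopolysaccharide, rose by 1.63, making 1 gain and 4 losses among 22 NF-kB genes (median -0.38). XAF1 and IL1B were not called without T10 replicate 2, nor NFKBIA without T10 replicate 1. IFIT3 and B2M lost their calls with other scalings (0.96 and 0.95 with DESeq2).

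Metabolic, stress and chromatin genes were mostly below the threshold, as were all representative peaks, of which 5.42% were gained and 9.78% lost. FASN, the fatty acid synthase, had 27.0 and 21.4 CPM in T10, 63.6 and 54.7 CPM in P10, and 24.3 and 24.8 CPM in C (-1.29 ± 0.18; edgeR adjusted p = 2.8e-05), the 1 call among 22 genes of cholesterol and fatty acid synthesis. VLDLR, a lipoprotein receptor that the unfolded protein response induces, had 16.4 and 17.6 CPM in T10, 56.0 and 60.02 CPM in P10, and 29.3 and 28.4 CPM in C (-1.77 ± 0.16), the 1 call among 21 stress genes (median 0.11). Glycolysis and hypoxia genes had 0 gains and 4 losses of 20, HK1 (-2.82), PFKFB3 (-1.18), BNIP3 (-1.07) and ENO1 (-1.004), with a median of -0.23. Among 24 chromatin regulators 0 were gained and 3 lost. DNMT3A, a DNA methyltransferase, had 7.51 and 9.15 CPM in T10, 20.1 and 20.2 CPM in P10, and 8.21 and 10.4 CPM in C (-1.26 ± 0.24). TET3, which oxidises methylated cytosine, fell by 1.05. Constitutive genes were no fixed point: POLR2A, the largest subunit of RNA polymerase II, had 124 and 143 CPM in T10, 40.6 and 40.6 CPM in P10, and 44.2 and 72.1 CPM in C (1.72 ± 0.23). Its peak is shared with SLC35G6 and ZBTB4. EEF2 rose by 1.25, ACTB fell by 1.05 and VCP by 1.13, so 2 of 15 were gained and 2 lost, with a median of 0.01. PFKFB3 (-0.59), BNIP3 (-0.38), DNMT3A (-0.86) and TET3 (-0.28) lost their calls with the GC relation removed, ENO1 (-0.31), ACTB (-0.55) and VCP (-0.23) with the window shift removed, and HK1 without T10 replicate 2.

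Some markers of other cell types had gene-end peaks as well, and 2 of them were called, beside 15.2% of all representative peaks. Summed over 6 measured blood genes of 11, there were 43.1 and 45.3 CPM in T10, 68.6 and 63.9 CPM in P10, and 39.1 and 35.7 CPM in C. GATA1 (-1.43) was the 1 call, at 1.09 and 0.86 CPM in T10, against 2.73 and 2.48 CPM in P10, and it was not called without T10 replicate 2. Summed over 7 of 10 endothelial genes, there were 67.8 and 68.0 CPM in T10, 84.0 and 84.8 CPM in P10, and 65.2 and 65.3 CPM in C, and ERG (-1.02) was the 1 call. Over 3 of 7 hepatocyte genes the sums were 17.3 and 12.8 CPM in T10, 19.2 and 21.2 CPM in P10, and 25.9 and 31.7 CPM in C. Over 7 of 10 neural genes they were 94.7 and 91.6 CPM in T10, 94.0 and 89.0 CPM in P10, and 61.4 and 74.5 CPM in C. The hepatocyte and neural lists had 0 calls. The blood and endothelial sums were higher in P10, as were several of the immune genes above, and their part in those differences was not tested.

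Single libraries decided part of the calls in these lists. Without T10 replicate 1 the calls of TWIST1 (-0.86), LAMB3 (-0.985), NFKBIA (-0.94), CDKN2B (-1.12), ENO1 (-0.96), POU5F1 (-1.39), ACTB (-0.99) and CCN2 (0.86) ended. Without T10 replicate 2, the deeper T10 library, those of COL6A2 (-1.09), OVOL2 (-1.06), ST14 (-1.57), FANCM (0.84), MAD2L2 (-0.83), SHLD3 (0.67), RAD51C (0.94), IFIT3 (0.90), XAF1 (-1.51), IL1B (-1.27), CDKN2B (-1.24), HK1 (-1.71), POU5F1 (-0.88), ERBB2 (0.78), TET3 (-0.96), AKR1B10 (0.93), AKR1C2 (1.26), B2M (0.76), BNIP3 (-0.95), GATA1 (-1.25), ERG (-0.75) and CD24 (-0.99) ended. Without P10 replicate 1 those of LAMB3 (-0.986), FANCM (0.91), MAD2L2 (-1.33), SHLD3 (0.95), CDKN2B (-1.03), HK1 (-2.44), ENO1 (-0.98), POU5F1 (-1.203), ERBB2 (0.87), VCP (-0.999), BNIP3 (-0.9999), GATA1 (-1.36) and ERG (-1.05) ended, and PARP1 was called (-1.08). Without P10 replicate 2 those of OVOL2 (-1.02), HK1 (-3.08), POU5F1 (-1.055), TET3 (-0.998), AKR1B10 (0.95), PLK3 (-0.99), B2M (0.96), GATA1 (-1.497) and ERG (-0.98) ended. FOS, EGR1, TCF7, TEAD2, COL1A1, BRIP1, SPINT2, GRHL1, DSP, MSLN, WT1, SOX17, CDKN2A, CCNE1, OAS2, RSAD2, HLA-B, CCL20, TNF, FASN and VLDLR were called with any 1 of the 4 libraries left out. The window shift and the GC relation, when removed, also ended the calls of IFIT3 (0.64 and 0.43), ERBB2 (0.84 and 0.69), B2M (0.92 and 0.70), PFKFB3 (-0.93 and -0.59), BNIP3 (-0.98 and -0.38), DNMT3A (-0.98 and -0.86), TET3 (-0.93 and -0.28), ENO1 (-0.31 and -0.93), CCN2 (0.53 and 0.82), ABCA3 (-0.71 and -0.76), CCNE1 (-0.92 and -0.48), EGFR (-0.58 and -0.63) and EPHB2 (-0.71 and -0.53). The GC relation alone, when removed, ended the call of ERG (-0.49).

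Promoter letters moved with the difference between T10 and P10. Over 11364 gene-end peaks that cover a promoter, the median log2 fold change of T10 over P10 was 0.40 in the lowest of 5 classes of GC content, then 0.27, 0.11 and -0.16, and -0.56 in the highest class. Gains took 16.1% of the lowest class and 0.416% of the highest, and losses 6.30% of the lowest and 21.6% of the highest. Set against C, the medians stayed between 0.15 and 0.18 across the classes in T10, but ran from -0.25 in the lowest to 0.71 in the highest in P10. The slope was thus carried by the P10 libraries, and it was alike in both. Gained promoters had a median GC content of 57.0%, and lost promoters one of 72.7%, beside 65.7% over all promoters with a peak. When the trend over GC content was taken out, 361 promoter peaks were gained and 849 lost, beside 638 and 1091 with it, and 909 of the 1729 calls were kept. Library GC content was not measured here, and whether the slope arose in the cells or in the preparation was not tested.

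**Figure D3:**
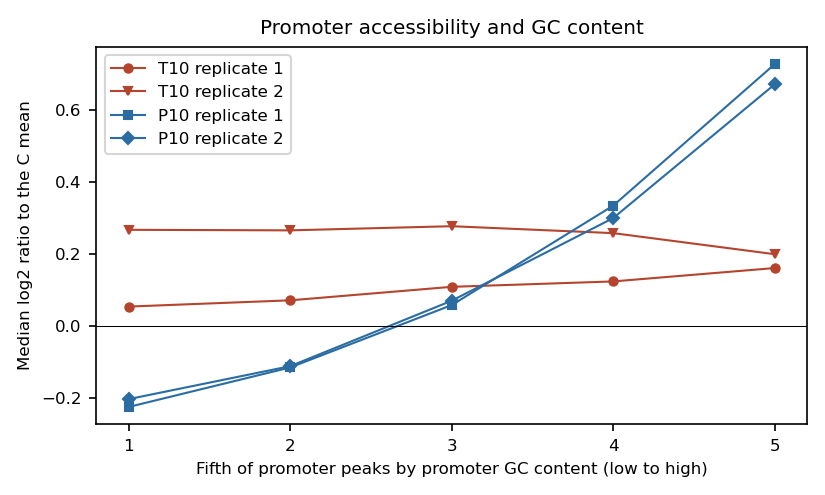
Median log2 ratio of each T10 library (red) and each P10 library (blue) to the mean of the C libraries, over 5 equal classes of promoter peaks ordered by promoter GC content. Both T10 lines are nearly level, and both P10 lines climb, from about -0.2 to about 0.7.

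Motif shares differed between gained and lost promoters. Each is set beside the 15307 promoters that lie under a peak, which gained and lost promoters also do, and beside all 22131 promoters of the same length. The GC box GGGCGG stood in 46.1% of 831 gained and 74.6% of 1371 lost promoters, beside 70.0% of those with a peak and 56.3% of all, so the gained promoters were the ones further from the share with a peak. CCAAT stood in 45.7% of gained and 24.3% of lost promoters, beside 34.3% with a peak and 34.6% of all. The ETS motif CCGGAAGT was in 8.06% of gained and 2.84% of lost promoters, beside 7.32% with a peak and 5.34% of all, so here the lost promoters were further from the share with a peak. The CRE TGACGTCA was in 4.81% of gained and 2.04% of lost promoters, beside 2.88% and 2.26%. For TGANTCA the shares were 7.82% of gained and 6.1999% of lost promoters, beside 4.76% and 6.15%, and for CATTCC 14.7% and 10.6%, beside 11.0% and 12.2%. ACAATNG stood in 4.21% of gained and 3.87% of lost promoters, near the 4.16% of promoters with a peak (5.40% of all). Matches on both strands were counted, motifs may overlap, and GC content was not held fixed in these shares, so a GC-rich motif and a GC-rich promoter cannot be told apart.

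Of the distal peaks, the 4 gains and the 4 losses with the smallest p are described. The peak chr20:58571453-58572646 lay 56054 bases from the nearest protein-coding gene, APCDD1L, and had 29.3 and 38.8 CPM in T10, 2.07 and 1.57 CPM in P10, and 5.17 and 8.58 CPM in C (4.22 ± 0.28; edgeR adjusted p = 1.5e-07). A peak within RASSF8 had 56.2 and 64.7 CPM in T10, 6.26 and 7.15 CPM in P10, and 27.5 and 21.5 CPM in C (3.17 ± 0.22). Peaks within CDH10, a neuronal cadherin, and SOX5, a SOX-family transcription factor, rose by 3.84 and 2.75, and there T10 lay near C: the SOX5 peak had 46.1 and 48.8 CPM in T10, 6.53 and 7.54 CPM in P10, and 39.1 and 37.4 CPM in C. A peak within CSF1, the macrophage growth factor gene, had 3.13 and 2.11 CPM in T10, 32.5 and 31.5 CPM in P10, and 14.5 and 9.90 CPM in C (-3.64 ± 0.30; edgeR adjusted p = 4.2e-07). A peak 9458 bases from TSPAN11 fell by 2.56, one within ABCA4 by 2.18 and one within KAZN by 2.61. T10 was lowest and P10 highest of the 3 populations at all 4 losses, and the choice of these peaks fixes T10 below P10. The gene named is the one that contains the peak or lies nearest, with no evidence here that the peak acts on it.

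Chromosomes differed in the balance of gains and losses. On chromosome 4, 28.9% of peaks were gained and 10.2% lost, on chromosome 14, 27.1% and 9.77%, on chromosome 7, 25.2% and 13.0%, and on chromosome 12, 23.8% and 9.12%. Chromosome 1 went the other way, with 8.60% gained and 26.6% lost and a median log2 fold change of -0.45. Chromosome 13 had 12.3% gained and 26.0% lost, chromosome 16 had 7.60% and 20.3%, and chromosome 22 had 6.16% and 17.4%.

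**Figure D4:**
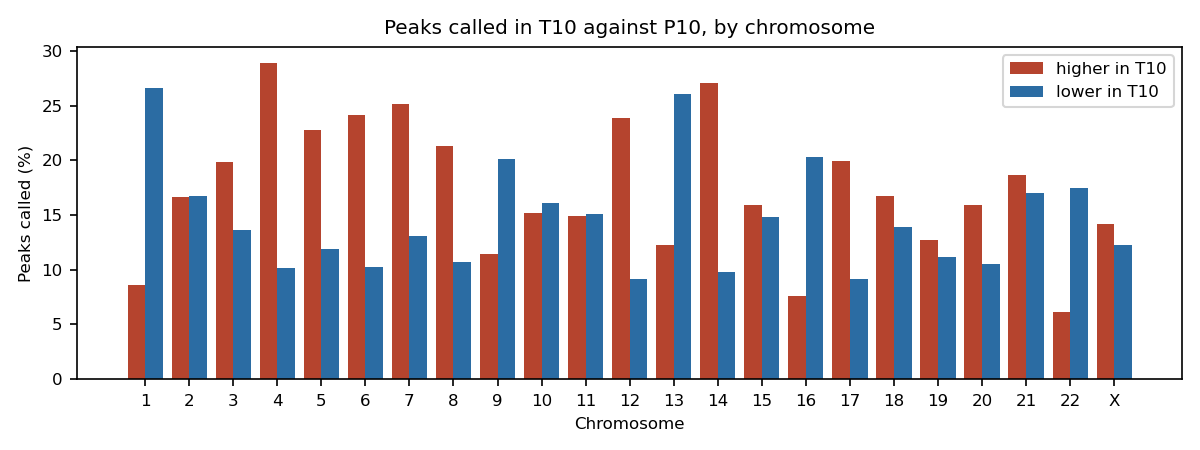
Percentage of the peaks of each chromosome called higher (red) or lower (blue) in T10 than in P10. Chromosomes 4, 7 and 14 have over 25% of peaks higher, and chromosomes 1 and 13 have over 25% lower.

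Within chromosomes, shifts ran over megabases. Of 573 windows of 5 Mb with at least 20 peaks, 107 had a median log2 fold change over 0.5, 45 had one under -0.5, and 421 lay between. The highest was the window from 80 to 85 Mb on chromosome 7, which holds the semaphorin genes SEMA3E and SEMA3A. Its 229 peaks had a median of 1.59, and 167 were gained and 1 lost; against C the medians were 0.78 in T10 and -0.84 in P10. Next came 90 to 95 Mb on chromosome 7 (1.35) and 45 to 50 Mb on chromosome 5 (1.25). The lowest was 110 to 115 Mb on chromosome 13, where 96 of 186 peaks were lost and 3 gained, with a median of -1.08 for T10 over P10, -0.79 for T10 over C and 0.22 for P10 over C. Then followed the windows of chromosome 1 that start at 120 Mb (-0.9999) and at 0 Mb (-0.99). DNA copy number was not measured, and copy number and accessibility cannot be told apart at this scale. Removing the median of each window gave 30684 calls, with 14840 gains and 15844 losses, so that losses outnumbered gains, and 25326 of the original calls were among them.

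Called peaks also ran together as neighbours. There were 27 unbroken runs of at least 10 gained peaks and 2 of at least 10 lost peaks. A run of 15 gained peaks covered 260 kb at PCDH18, a protocadherin of cell adhesion, on chromosome 4. Summed over that run there were 90.7 and 138 CPM in T10, 22.9 and 25.2 CPM in P10, and 46.0 and 63.7 CPM in C, and the median peak rose by 2.52. Another 15 gained peaks lay over SEMA3E, a guidance cue, with 154 and 220 CPM in T10, 39.3 and 37.7 CPM in P10, and 71.1 and 104 CPM in C (median 2.18). Runs of 14 lay at PI15 on chromosome 8 (median 2.13), at IMMP2L on chromosome 7 (1.67), and at chr7:85469101-85733938 with no protein-coding gene (2.15). In each of these 5 runs the T10 sums were the highest and the P10 sums the lowest of the 3 populations. T10 above P10 follows from how the runs were chosen, and that choice also favours C values between them. The longest run of losses, 13 peaks over 257 kb of chromosome 1, covered the epidermal genes CRNN, FLG, FLG2 and HRNR. It had 47.9 and 33.0 CPM in T10, 140 and 137 CPM in P10, and 173 and 162 CPM in C, and the median peak fell by 1.94; here P10 lay nearer to C. The next held 10 peaks at chr1:29953761-30059527 with no protein-coding gene, with 35.4 and 23.8 CPM in T10, against 111 and 117 CPM in P10 (median -1.97). Runs of 9 lost peaks were tied next, at H6PD and SPSB1 (chromosome 1), ANKRD10 and ARHGEF7 (chromosome 13), ABTB2 (chromosome 11), and on chromosome 9 with no protein-coding gene.

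At 320 uM the same contrast, T320 against P320, used other libraries. It called 35925 peaks (34.2%), 20693 gained (19.7%) and 15232 lost (14.5%), and with TMM scaling from gene-end peaks the share of gains was 83.3%, beside 57.6%. Of the peaks gained at 10 uM, 9646 were also gained at 320 uM, which is 51.5% of the 10 uM list and 46.6% of the 320 uM list, and 410 (2.19%) were lost there. Of the peaks lost at 10 uM, 5043 were also lost at 320 uM, 31.9% and 33.1% of the lists, and 1657 (10.5%) were gained there. Across all 105048 peaks the log2 fold changes of both doses had a Pearson correlation of 0.455 and a Spearman correlation of 0.439, given as a description, since neighbouring peaks share windows and the peaks share base composition. The fall of the median from low to high GC content appeared at 320 uM too, with 0.04 in the lowest and -0.90 in the highest class.

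**Figure D5:**
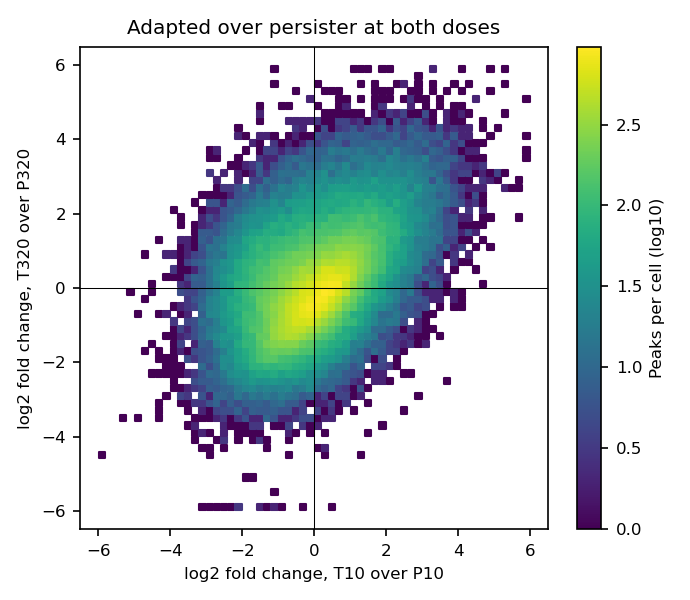
Each small square counts the peaks (colour, log10) at a log2 fold change of T10 over P10 (horizontal) and of T320 over P320 (vertical), with values beyond 6 drawn at the edge. The cloud is tilted (Pearson 0.455), and the row at the bottom left holds peaks that were nearly empty in T320.

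A test of the difference between the contrasts called 24764 peaks (23.6%), 10500 (10.0%) in which the change of T10 over P10 was the higher and 14264 (13.6%) in which it was the lower; with gene-end scaling 17.8% of these calls were of the first kind, beside 42.4%. The 4 gene-end peaks with the smallest p were COL7A1, MTG2, KDELR1 and ODAD1. COL7A1, an anchoring collagen, had 8.74 and 7.78 CPM in T10, against 19.2 and 21.7 CPM in P10, but 33.7 and 34.5 CPM in T320, against 8.68 and 9.85 CPM in P320. The contrast fell by 1.31 at 10 uM and rose by 1.88 at 320 uM, a difference of -3.19 ± 0.30 (edgeR adjusted p = 4.4e-06). KDELR1, a receptor that returns proteins to the endoplasmic reticulum, had 74.3 and 80.3 CPM in T10, 59.8 and 63.0 CPM in P10, 12.7 and 12.5 CPM in T320, and 72.6 and 66.4 CPM in P320. T320 was alone in being low there, and ODAD1, which lies close by on chromosome 19, had the same order, with a difference of 2.45 ± 0.25. The far end of MTG2, a mitochondrial GTPase, had 10.7 and 11.1 CPM in T10, 12.8 and 14.4 CPM in P10, 30.4 and 37.0 CPM in T320, and 3.39 and 3.90 CPM in P320. CDKN2A fell further at 320 uM, to 0.942 and 0.179 CPM in T320, against 67.7 and 56.5 CPM in P320, and CDKN2B beside it differed in the same way (5.15). HLA-B, OAS2, CCL20 and TNF fell at 10 uM and had other values at 320 uM. HLA-B had 16.4 and 13.0 CPM in T320, against 4.62 and 4.31 CPM in P320, and OAS2 had 9.33 and 7.08 CPM in T320, against 4.24 and 4.20 CPM in P320. The differences were -3.98 ± 0.62 for HLA-B and -2.72 ± 0.40 for OAS2 (edgeR adjusted p = 0.00020 and 0.00012), and -2.23 ± 0.30 for CCL20 and -1.07 ± 0.24 for TNF. RSAD2 fell at both doses, by 1.63 and 1.56. FOS rose at both doses, by 2.45 at 10 uM and 1.15 at 320 uM (difference 1.30 ± 0.30), and EGR1 by 2.04 and 1.71 with no call of the difference (0.33).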

How the data were processed

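Libraries were made from about 50000 cells each with the Omni-ATAC protocol, per the labels' protocols. The authors deposited raw counts for each consensus peak; the labels call them read counts, and the values are whole and not normalized. It is not stated whether fragments were counted, nor whether peak starts count from 0. The submitters' processing notes name the build GRCh38 and, without roles, deepTools 3.1 and 3.5.1, HOMER 4.1, MACS2, DESeq2, SAMtools, Picard, Bowtie2 and Trim Galore.

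Counts of 20 libraries in 10 groups were fitted with edgeR 4.0.16 (robust quasi-likelihood, TMM, no replicate block, R 4.3.3). filterByExpr removed 0 peaks. Called means an adjusted p under 0.05 and at least a 2-fold change, over all peaks. The 20 libraries held 9627970 to 29699950 counts. CPM use TMM-scaled sizes, and peaks differ in width, so CPM are compared within a peak only. Errors are standard errors of the fit and cover counting and the spread between libraries. The script was tested on simulated data. The other 8 samples have no column in this table and were not analysed here.

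Genes were placed with RefSeq positions (GRCh38.p14), and a start was told from a far end where a promoter table gave the strand. Genes were named by rule: the 8 largest rises and falls at gene ends (a mean of 2 CPM or more in the group with the higher level, libraries not overlapping), per list the 2 called members of lowest adjusted p, 12 set genes, 4 and 4 distal peaks, and 4 peaks of the dose difference. Other called list members are named to show which they were, except that a few genes are counted in their lists but not reported here. The members, lists and rules were chosen with earlier results of these data known. Alternatives were other scalings, a window offset (5 Mb medians), a trended offset, a replicate block, DESeq2 1.42.0, filters, glmTreat, single groups, left-out libraries and, chosen after seeing the data, promoter peaks alone and a promoter GC offset.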

Additional observations from a re-analysis of the deposited data

Results flagged for a closer look

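The difference between adapted and persister cells was not the same at both doses, by the edgeR test of (T10 over P10) minus (T320 over P320), at 24764 peaks. Values below are that difference in log2 units.

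Among the genes named for the contrast at 10 uM it was 2.04 for SLC35F1, -2.21 for PDZK1IP1 and -2.78 for TIPRL. For LRRC70 it was -5.18, but both P320 libraries are listed at 0 counts there, so the size depends on the fit and is no bound. In epithelial and lineage genes it was 1.08 for SPINT2, 1.23 for SOX17 and 1.41 for KLK8. In signalling genes it was 1.30 for FOS, -2.30 for KLF6, 1.62 for TCF7 and 1.13 for LATS2. In immune genes it was -2.72 for OAS2, 1.03 for IFIT1, -2.62 for XAF1, -3.98 for HLA-B, -1.07 for TNF, -2.23 for CCL20, -2.87 for IL1B and -1.28 for TLR4. It was 5.51 for CDKN2A and 5.15 for CDKN2B, whose peaks were nearly empty in T320, 1.21 for DNMT3A and -4.03 for HK1. At distal peaks it was 1.88 in CDH10, -1.14 in ABCA4, -2.12 in CSF1 and -1.73 in KAZN. It was largest by p for MTG2 (-3.53), KDELR1 (2.79), COL7A1 (-3.19) and ODAD1 (2.45).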

How the results depend on the processing

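The count for T10 against P10 (34568) was 12162 with glmTreat and ran from 22799 (without T10 replicate 2) to 37350 with a library left out. T10 against C ran from 10005 (without T10 replicate 2) to 19280 and P10 against C from 12799 (without C replicate 2) to 26909. Nothing in the labels says that replicate numbers pair the samples. Deviations of same-numbered libraries had a correlation of -0.02 for T10 and P10, and of -0.09 to -0.0003 for the other pairs with P10 or P320, but of 0.45 for T10 and T320, 0.34 for T10 and C and 0.17 for T320 and C. The replicate block gave 37143 calls for T10 against P10 (18879 gained, 18264 lost; 33059 with the window offset), 21676 for T10 against C (9632 gained, 12044 lost) and 30684 for the difference between doses. DESeq2 gave 35073. Of the gene list members (76 called), glmTreat called 15 and the fit with no fold minimum 191.

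Of 106 named peaks, the window offset ended 32 calls with the sign kept and turned 4 signs. Of those 4, COL1A2 and KLK8 had been called and lost their calls as well. The promoter GC offset ended 24 calls and turned 3 signs of 61, and leaving out T10 replicate 2 ended 23 calls. Signs turned for COL1A2 (-0.21 with the window offset, -0.21 with block and window), KLK8 (-0.0034 and -0.00022), BRCA2 (trended -0.062, GC offset -0.062, block with GC -0.063, and -0.0078 to 0.185 with a library left out), VIM (trended -0.061, window -0.035, block with window -0.035, GC -0.30, block with GC -0.31) and FN1 (window 0.22, block with window 0.22, GC 0.37, block with GC 0.37); the cause was not tested. Peaks under about 3 CPM limit the depth of the largest folds.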
